A study of Mus musculus with 9 samples.

Results

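The replication-dependent histone genes encode the histone proteins that package newly made DNA. They were taken as every entry of the deposited count table whose symbol starts with Hist1h, Hist2h, Hist3h or Hist4h, which gave 68 of 23457 genes. By class, 6 belong to linker histone H1, 18 to H2A, 19 to H2B, 12 to H3 and 13 to H4, and 1 of the H2B entries, Hist3h2bb-ps, is annotated as a pseudogene. By location, 54 lie in the large cluster on chromosome 13, 10 on chromosome 3, 3 on chromosome 11 and 1 on chromosome 6. The choice used symbols alone and no measured value.

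Poly(A) RNA was sequenced from 9 hearts of adult C57BL/6J mice, 4 labelled as germline Parkin knockouts (KO) and 5 wild type (WT), with 1 library per heart. Parkin is an E3 ubiquitin ligase that marks damaged mitochondria for removal, and a germline knockout lacks it in every cell type, not in cardiomyocytes alone. The RNA came from frozen ventricular apices, per the labels' protocols, while the tissue label reads whole heart. RNA captured on oligo(dT) was sequenced from 1 end without strand information, so reads of overlapping genes on either strand cannot be told apart.

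Most cellular mRNAs end in a poly(A) tail, but the mRNAs of these genes normally end just after a short stem-loop, which is bound by the stem-loop binding protein and cut with the help of the U7 small nuclear RNA. They are made in S phase and degraded when DNA synthesis stops, and adult cardiomyocytes seldom divide. Some of the genes also give longer or spliced transcripts that carry poly(A) tails, and these can be present in cells that do not divide. A poly(A) library therefore reads the tailed transcripts of a histone gene, and any untailed ones only as carry-over.

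The stem-loop was searched for in the sense strand of the GENCODE vM21 transcripts and was found in 44 of the 68 genes, in 7 spellings. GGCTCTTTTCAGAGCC stood in 26 genes of the H1, H2A, H2B and H3 classes, and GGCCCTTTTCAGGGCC in 7 genes, all H4. The stem-loops are shown for the 5 of the 7 genes with enough reads to test in which the search found one, since the distance between the stem-loop and the annotated end separates a transcript that stops there from one that runs on. Capitals mark the 16-base stem-loop, 5′ to 3′ in DNA letters.
Hist1h1c: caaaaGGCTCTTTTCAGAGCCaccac
Hist1h1e: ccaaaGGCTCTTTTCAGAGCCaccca
Hist3h2a: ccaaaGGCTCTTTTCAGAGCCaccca
Hist1h4h: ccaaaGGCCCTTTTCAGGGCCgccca
Hist4h4: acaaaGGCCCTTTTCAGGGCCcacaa
The annotated transcript runs on for 840 bases past the stem-loop in Hist1h1c, 1153 in Hist1h1e, 1643 in Hist3h2a and 2445 in Hist4h4, but only 46 in Hist1h4h. No stem-loop was found in the transcripts of the other 2 tested genes, Hist1h2bc, whose transcript has 2 exons, and Hist2h2be. A missing match says only that these letters are not in the annotated transcript.

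Few reads fell on the histone genes, and nearly all of them on a handful. The 9 hearts held 8910 histone reads in all, of which Hist1h1c, a linker histone H1, had 4533. No read was counted in any heart for 24 genes, 24 had between 1 and 9 reads over all hearts, 13 had 10 or more but too few to pass edgeR's expression filter, and 7 passed and were tested. These 7 genes held 8420 of the reads, or 94.5%. Total assigned reads ran from 11637206 to 15777844 in KO hearts and from 4415183 to 20827699 in WT hearts, and mitochondrially encoded genes took 10.04% to 15.4% of them in KO hearts and 32.6% to 58.2% in WT hearts. WT hearts 2 and 3 were the shallowest.

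In the count table, the reads lay where the GENCODE annotation has a transcript that could carry a tail. RefSeq ends Hist1h1c at position 23739531 and Hist3h2a at 58955192, against 23740367 and 58956830 in GENCODE. The annotation that the authors counted on is not given, so the splits below hold for GENCODE ends only. In 29 genes the annotated transcripts ran at least 100 bases past the stem-loop, were spliced, or had the poly(A) signal AATAAA or ATTAAA within 40 bases of an annotated end. These 29 genes held 98.05% of the histone reads and all 7 tested genes, and 3 of them had no read. The other 39 genes held 1.953% of the reads, and 21 of them had none. Of the 22 genes with a transcript extended past the stem-loop, each had at least 1 read, whereas 12 of the 22 whose transcript ends near the stem-loop had none. The authors' FPKM values (fragments per kilobase, scaled to depth) did not show this split. There 21 of the 29 genes and 28 of the other 39 had a mean of at least 0.5 FPKM. So did 15 of the 22 extended genes and 17 of the 22 that end near the stem-loop.

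Many of these genes are near-identical copies, and the counted reads also lay where the sequence is unique. The measure was the share of a gene's 50-base windows found in no transcript of another GENCODE gene, and the read length is not given in the sources used here, so the window length was a free choice. The 34 genes with at least 50% unique windows held 98.95% of the histone reads, and 4 of them had no read. The 34 genes under 50% held 1.055%, and 20 of them had none. A gene at 0 is given here as not counted, not as silent. The 2 patterns lie largely in the same genes. Of the 29 genes with an extended, spliced or signal-bearing transcript, 24 had at least 50% unique windows, and these 24 held 97.45% of the reads. Of the other 39 genes, 10 had at least 50% unique windows. Among these 10, 3 had no read and all 10 together had 133 reads. The parts of tail and of unique sequence in the counts were not tested. The plot of reads against unique sequence shows both patterns.

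**Figure D1:**
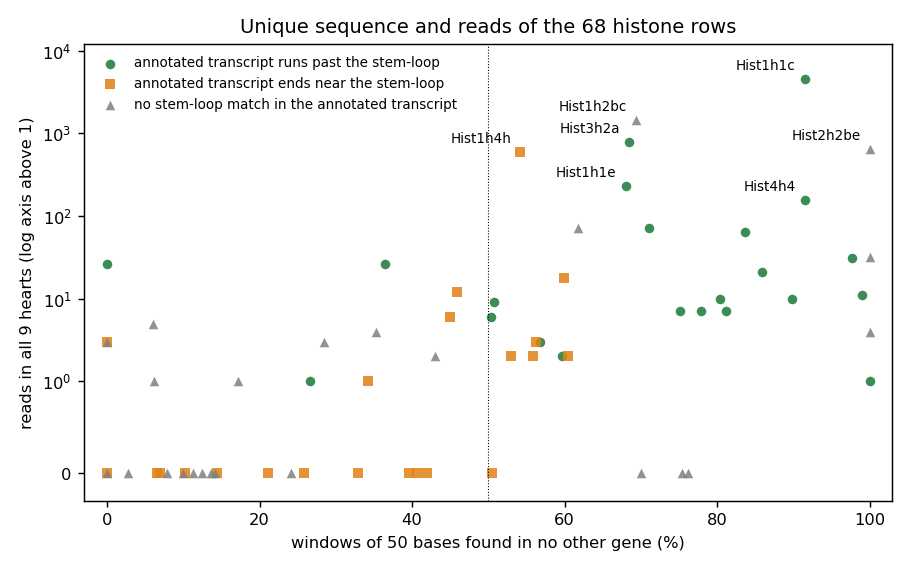
Reads of each of the 68 histone genes summed over the 9 hearts (vertical axis, log scale above 1) against the percentage of its 50-base windows found in no other gene (horizontal axis); the dotted line stands at 50%. All 7 named genes, those tested, lie right of the line, and 20 of the 24 genes at 0 reads lie left of it.

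The deposited tables also differed at a globin gene. Hba-a1, 1 of a pair of near-identical alpha-globin genes, had 0 reads in all 9 hearts in the count table. The authors' FPKM table lists it at 3657, 2501, 3539 and 2401 FPKM in KO hearts 1 to 4, and at 2470, 844.5, 1065, 2215 and 1551 FPKM in WT hearts 1 to 5. A gene with no counted read was thus listed with a high FPKM in the same hearts. The globin genes Hba-a2, Hbb-b1 and Hbb-b2 also had 0 reads in all 9 hearts, and only Hba-a1 is compared here.

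Between the genotypes, 3 of the 7 tested histone genes were higher and 1 was lower in KO hearts (edgeR quasi-likelihood test, adjusted p under 0.05 over all genes). Over all 12640 genes tested 51.4% passed the same test, 26.2% higher and 25.2% lower, so the share of histone genes called is near that of genes at large. The groups did not overlap in the same 3 genes above WT and the same 1 below, against 22.3% and 19.3% of all tested genes (41.6% either way). The median over the 7 was 0.09 on the log2 scale, and -0.01 over all tested genes. The same 4 genes were called in the same directions with other scaling factors, with the replicate number as a block, with each heart left out in turn, and after a correction for trends with transcript GC content and length. That correction left 38.7% of all genes called, 19.1% higher and 19.7% lower. In bulk tissue, a change in the number of cells of a type and a change in RNA per cell cannot be told apart, and each p-value measures the spread between these hearts.

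Hist1h1c, the linker histone H1.2, was at 45.1, 42.2, 45.3 and 60.2 CPM (read counts scaled to depth with TMM) in KO hearts 1 to 4, and at 28.5, 18.4, 19.8, 15.9 and 19.0 CPM in WT hearts 1 to 5. Each KO heart was above each WT heart, and WT heart 1 stood above the other WT hearts. The log2 fold change was 1.23 ± 0.17 (SE; edgeR adjusted p = 5.5e-05), and the GC- and length-corrected value was 0.79 (adjusted p = 9.12e-04). Its GENCODE transcript has a poly(A) signal near its end, and 91.5% of its windows are unique. It lies at chr13:23738808-23740367 on the plus strand (GRCm38) and has 1 exon.

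Hist1h4h encodes histone H4, the partner of H3 in the core particle. In KO hearts it was at 6.51, 5.42, 7.13 and 8.38 CPM, and in WT hearts at 2.65, 1.04, 3.26, 1.12 and 2.44 CPM. The groups were apart, with every KO heart above the highest WT heart. The log2 fold change was 1.70 ± 0.27 (edgeR adjusted p = 1.59e-04), with a corrected value of 0.86 (adjusted p = 0.0149). With reads outside mitochondrially encoded genes thinned to the depth of the shallowest heart, it was 1.08 and did not pass (adjusted p = 0.403). This gene lies at chr13:23531050-23531519 on the plus strand. It is the only tested one whose GENCODE transcript stops near the stem-loop, and it has a poly(A) signal near that end. It shares 42.3% of its windows with Hist1h4j.

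Hist3h2a, an H2A gene on chromosome 11, stood at 8.27, 6.81, 7.43 and 9.02 CPM in KO hearts and at 4.13, 6.24, 4.44, 5.41 and 3.60 CPM in WT hearts. The lowest KO heart was just above the highest WT heart. Its log2 fold change was 0.76 ± 0.19 (edgeR adjusted p = 0.00372), with 1.07 after GC and length correction and 1.02 in thinned counts (adjusted p = 0.221). Its exon, at chr11:58954685-58956830 on the plus strand, overlaps exons of Trim17 on the same strand and Gm44313 on the opposite one, so its reads may in part be theirs, and that share was not tested.

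Hist4h4, the lone histone gene of the chromosome 6 site and also an H4 gene, went the other way. It was at 0.71, 0.54, 0.76 and 0.79 CPM in KO hearts, against 1.39, 3.12, 5.33, 1.83 and 2.67 CPM in WT hearts. Every KO heart was below every WT heart, and WT heart 3 was the highest. The log2 fold change was -1.82 ± 0.39 (edgeR adjusted p = 0.0013), and the corrected value was -1.36 (adjusted p = 0.0123). It was too sparse to test in thinned counts. These levels rest on 9 to 15 reads per KO heart and 9 to 31 per WT heart. It lies at chr6:136801553-136804415 on the minus strand.

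The other 3 tested genes did not pass the test. Hist1h2bc, an H2B gene, was at 11.1, 10.1, 12.6 and 13.03 CPM in KO hearts, and at 12.4, 20.1, 11.9, 10.9 and 11.1 CPM in WT hearts (log2 fold change -0.13 ± 0.18, edgeR adjusted p = 0.560). Hist2h2be, another H2B gene, was at 6.13, 4.28, 5.11 and 3.87 CPM in KO hearts, and at 5.60, 4.51, 1.48, 7.16 and 6.15 CPM in WT hearts (-0.15 ± 0.27, adjusted p = 0.670). Hist1h1e, the linker histone H1.4, was at 1.38, 1.57, 2.83 and 1.93 CPM in KO hearts, and at 2.11, 2.08, 2.37, 0.98 and 1.97 CPM in WT hearts (0.09 ± 0.32, adjusted p = 0.831). In all 3 the groups overlapped, and the sign of the fold change turned under other settings. The exon of Hist1h1e overlaps those of Hist1h2be and Gm11398 on the same strand.

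**Figure D2:**
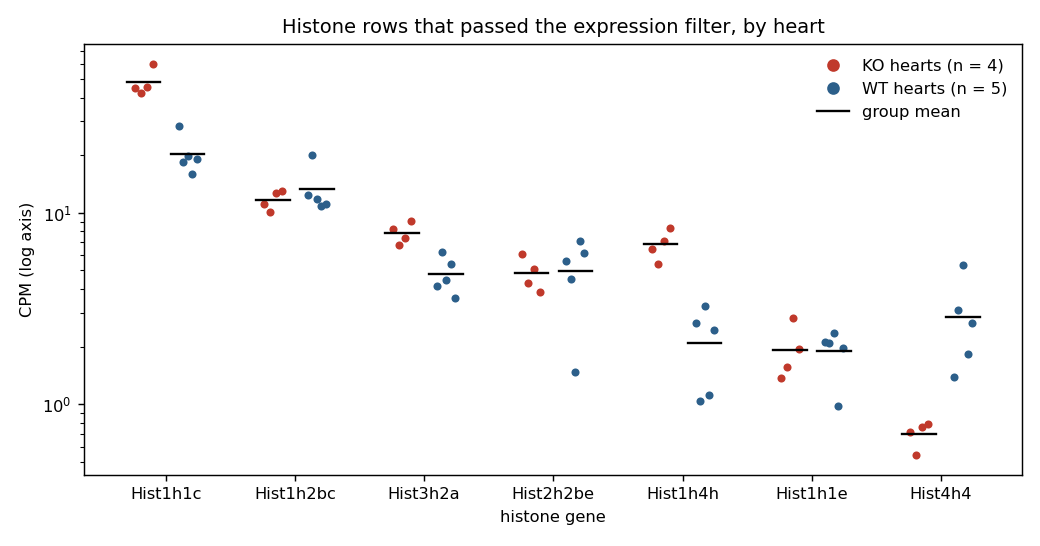
CPM of the 7 tested histone genes in each heart (log axis), KO hearts left of WT hearts, with a bar at each group's mean. Hist1h1c, Hist3h2a and Hist1h4h are higher in every KO heart than in any WT heart, Hist4h4 is lower in every KO heart, and the other 3 overlap.

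Hist1h4h and Hist4h4 changed in opposite directions, and both promoters carry the letters of the H4 element, GGTCCG, part of the site bound by the factor HINFP in human H4 promoters. RefSeq promoters, from 250 bases before to 50 after the gene start (GRCm38.p6), matched 61 of the 68 genes, with 62 promoters. On either strand, GGTCCG stood in 11 of 12 H4 promoters, in 2 of 50 promoters of the other histone classes and in 8.3% of all 32851 mouse promoters. The box with the letters CCAAT stood in 85.5% of histone promoters and 37.4% of all. TATAAA, the letters of a TATA element, stood in 56.5% of histone promoters and 13.6% of all. GGTCCG can share its first 2 letters with CCAAT read on the other strand. Both sequences are shown because the shared element sits in genes that moved apart; capitals mark GGTCCG, and neither holds CCAAT or TATAAA.
Hist1h4h, chr13:23530794-23531093, plus strand: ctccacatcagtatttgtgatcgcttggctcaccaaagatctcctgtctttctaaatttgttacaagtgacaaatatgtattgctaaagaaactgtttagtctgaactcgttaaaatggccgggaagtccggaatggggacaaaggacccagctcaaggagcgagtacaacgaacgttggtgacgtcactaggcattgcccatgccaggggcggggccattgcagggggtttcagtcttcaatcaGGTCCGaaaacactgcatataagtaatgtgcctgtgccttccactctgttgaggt
Hist4h4, chr6:136804382-136804681, minus strand: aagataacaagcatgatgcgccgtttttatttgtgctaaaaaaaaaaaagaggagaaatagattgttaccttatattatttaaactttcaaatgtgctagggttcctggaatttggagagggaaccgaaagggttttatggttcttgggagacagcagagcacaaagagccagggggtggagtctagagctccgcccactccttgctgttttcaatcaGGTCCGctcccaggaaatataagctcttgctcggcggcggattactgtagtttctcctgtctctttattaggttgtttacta
A match is a description of the letters, not a measured binding site.

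Among genes too sparse for the filter, a fit without it covered 44 histone genes and called 7 higher and 1 lower, against 19.0% and 17.4% of the 18026 genes in that fit (36.4% in all). The 4 added were all higher in KO hearts. Hist1h2ba, the testis form of H2B, had 0, 20, 20 and 26 reads in KO hearts and 2, 0, 0, 4 and 0 reads in WT hearts, with KO heart 1 at 0 among them (log2 fold change 3.02, adjusted p = 0.0064). Hist1h4i, an H4 gene, had 8, 16, 23 and 14 reads in KO hearts and 6, 1, 1, 1 and 2 in WT hearts (1.996, adjusted p = 0.00491). Hist1h2bb, an H2B gene, had 2, 5, 7 and 3 reads in KO hearts, and 1 read in all WT hearts together (3.13, adjusted p = 0.0136). Hist1h4c, a further H4 gene, had 10 reads over the KO hearts and 0 over the WT hearts (adjusted p = 0.0214), which is at least 2.2-fold higher per read outside mitochondrially encoded genes when the WT group is set at a floor of 3 reads. Hist1h2ba and Hist1h4i were also called higher by DESeq2, without KO heart 1, and without WT hearts 2 and 3. Each of these settings let more histone genes into the test, so that 5 were called higher and 1 lower. Both genes had most of their reads in KO hearts, so they entered through the group where they were high. Leaving out KO heart 1 also took away the KO heart with 0 Hist1h2ba reads. These added calls are therefore not separate support. In counts thinned to equal depth only 5 histone genes could be tested, and only Hist1h1c was called, against 23.0% of the 10157 genes tested there.

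Summed over all 68 genes, histone reads came to 82.3, 75.8, 87.3 and 104.4 CPM in KO hearts, against 58.9, 57.2, 51.2, 46.1 and 49.3 CPM in WT hearts. The means were 87.5 ± 12.3 CPM in KO hearts (SD, n = 4) and 52.6 ± 5.38 CPM in WT hearts (SD, n = 5), a ratio of 1.67, and the groups did not overlap. No test was run on a sum over members. Hist1h1c alone averaged 48.2 ± 8.13 CPM in KO hearts and 20.3 ± 4.77 CPM in WT hearts. Without Hist1h1c, the sums of the remaining histone genes overlapped, with WT heart 2 above KO hearts 1 and 2. As a share of reads outside mitochondrially encoded genes, histone reads ran from 0.01125% (95% Wilson interval 0.0106 to 0.0119) in heart 2 to 0.0148% (0.0141 to 0.0156) in heart 4 of the KO group. In WT hearts the share ran from 0.00742% (0.00688 to 0.00801) in heart 4 to 0.00936% (0.00886 to 0.00988) in heart 1. These intervals cover counting error only.

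The classes differed in how far the groups stood apart. Summed H1 reads were at 44.1 to 63.5 CPM in KO hearts and 17.2 to 30.8 CPM in WT hearts. The H2A sum was at 7.17 to 9.66 CPM in KO hearts and 4.18 to 6.24 CPM in WT hearts. Neither of these overlapped, and both are led by a gene named above, Hist1h1c and Hist3h2a. H2B came to 18.7 ± 1.81 CPM in KO hearts and 18.9 ± 4.15 CPM in WT hearts, with a ratio of 0.989. H4 ran from 7.41 to 10.6 CPM in KO hearts and from 3.02 to 10.4 CPM in WT hearts, where heart 3 overlapped the KO hearts. H3, with 84 reads in all, stayed at or below 1.01 CPM in every heart and overlapped. The 61 genes that were not tested summed to 3.09, 4.94, 6.12 and 7.23 CPM in KO hearts and 2.15, 1.73, 2.67, 2.74 and 2.32 CPM in WT hearts. They were above WT in each KO heart, with a ratio of 2.30, and of 1.92 without Hist1h2ba. After thinning each heart to 1845431 reads outside mitochondrially encoded genes, 18, 18, 20 and 18 histone genes had a read in KO hearts, and 16, 12, 11, 14 and 10 in WT hearts. In that random draw the histone reads summed to 215, 226, 213 and 317 in KO hearts, and to 239, 165, 156, 133 and 143 in WT hearts. These sums overlapped, with WT heart 1 above KO hearts 1, 2 and 3.

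**Figure D3:**
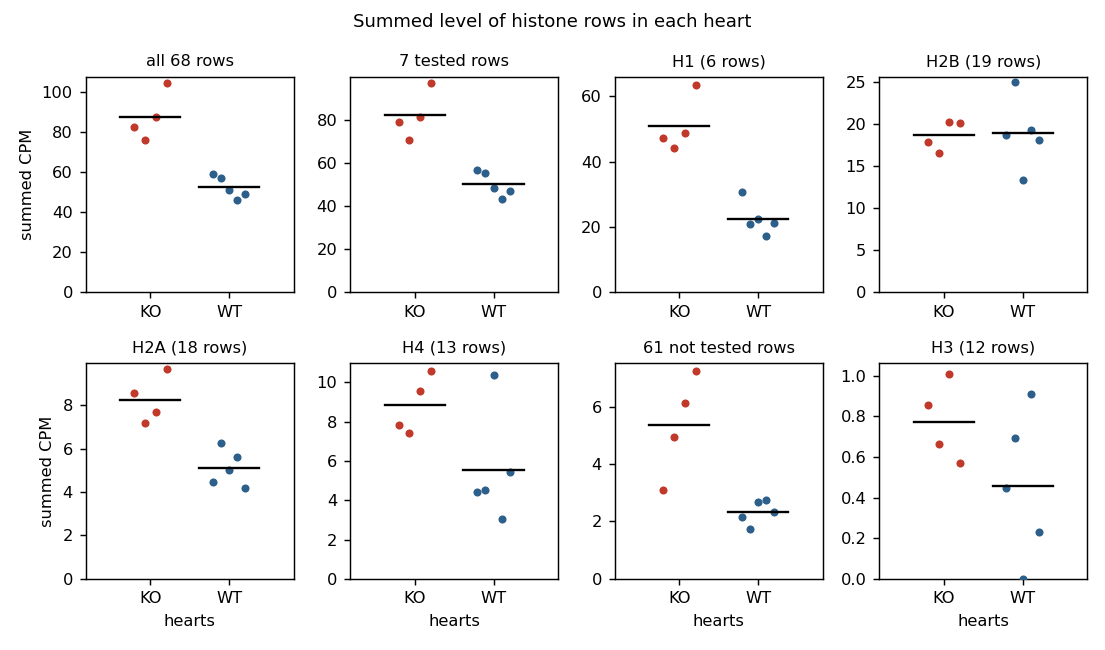
Summed CPM of histone genes in each heart, KO left of WT, for all 68 genes, the 7 tested, the 61 not tested and each protein class, with a bar at the group mean and each axis starting at 0. The groups are apart for all genes, the tested and untested genes, H1 and H2A, and overlap for H2B, H3 and H4.

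The deposited FPKM values (fragments per kilobase, scaled to depth) cover more histone genes. Of 67 listed there, 49 had a mean of at least 0.5 FPKM and entered a limma-trend test on log2(FPKM + 1). Of these, 43 were higher and 0 lower in KO hearts, against 47.2% and 6.09% of all 12637 genes tested (53.3% in all). The filter took the mean over all 9 hearts, so some genes passed only through the KO hearts, where they were high. Hist1h4d, for example, averaged 3.63 FPKM in KO hearts and 0.251 FPKM in WT hearts. All genes had the same filter, but counts of higher histone genes here and by class below include such genes. In 38 of them every KO heart was above every WT heart, against 41.3% of all genes. FPKM as deposited shifted the median log2 fold change of all genes by 0.44 toward KO. Each heart's median FPKM was 6.28, 5.76, 5.78 and 5.51 in KO hearts and 5.09, 3.03, 3.37, 4.57 and 3.50 in WT hearts. After division by each heart's median, an alternative chosen after seeing the data, 34 of the 49 were higher and 1, Hist4h4, was lower, against 25.9% and 23.8% of all genes (49.7% in all). The median of the 49 was then 1.11 and that of all genes 0.00. Near-identical copies share reads, so these genes are not independent of each other, and no test of the list was made.

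The largest FPKM value among the genes without counted reads was that of Hist2h2aa1, an H2A gene that shares 89.2% of its windows with Hist2h2aa2 and has 0% unique windows. It was listed at 41.4, 48.3, 40.1 and 68.4 FPKM in KO hearts, and at 21.6, 15.5, 5.97, 4.32 and 15.4 FPKM in WT hearts. Every KO heart was above every WT heart (median-centred log2 fold change 1.497 ± 0.44, limma adjusted p = 0.0174). Its exon overlaps exons of 3 other annotated genes, 2 on the opposite strand. Per length, Hist2h2aa1 was listed above Hist1h1c in KO hearts by group mean, at 49.6 ± 13.1 against 43.4 ± 5.79 FPKM, a gap within its spread.

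Of the 24 genes with 0 reads, 17 had a mean of at least 0.5 FPKM, and 13 of these were called higher after median-centring. That fit called 25.9% of all genes higher. Some of the 17 passed the filter only through KO hearts, as Hist1h2an did (1.43 ± 0.891 FPKM in KO hearts, 0.259 ± 0.206 FPKM in WT hearts). In the H2B class 13 of 15 were called higher, with a median of 1.61 on the log2 scale. Hist1h2bh, with 7 counted reads, averaged 9.13 ± 2.89 FPKM in KO hearts and 0.660 ± 0.606 FPKM in WT hearts (2.29 ± 0.26, limma adjusted p = 3.03e-04). Hist1h2bk, with 0 counted reads, averaged 13.5 ± 5.26 FPKM in KO hearts and 1.504 ± 0.773 FPKM in WT hearts (2.11 ± 0.31, adjusted p = 6.96e-04).

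The other classes were less uniform in the median-centred values, where 25.9% of all genes were higher and 23.8% lower. In H4, 10 of 13 genes were higher and Hist4h4 was lower, at 0.986 ± 0.127 FPKM in KO hearts and 1.73 ± 0.667 FPKM in WT hearts. In H2A, 10 of 14 were higher, in H1 only Hist1h1c of 3 was, and in H3 none of the 4 tested was. Hist2h4 rested on 1 library: WT heart 3 had 5 of its 11 reads, and the gene averaged 0.657 ± 0.248 FPKM in KO hearts and 1.56 ± 3.15 FPKM in WT hearts. Hist1h2bc, called higher in the FPKM as deposited (0.62, adjusted p = 0.0133), stood at 0.04 after centring (adjusted p = 0.871).

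**Figure D4:**
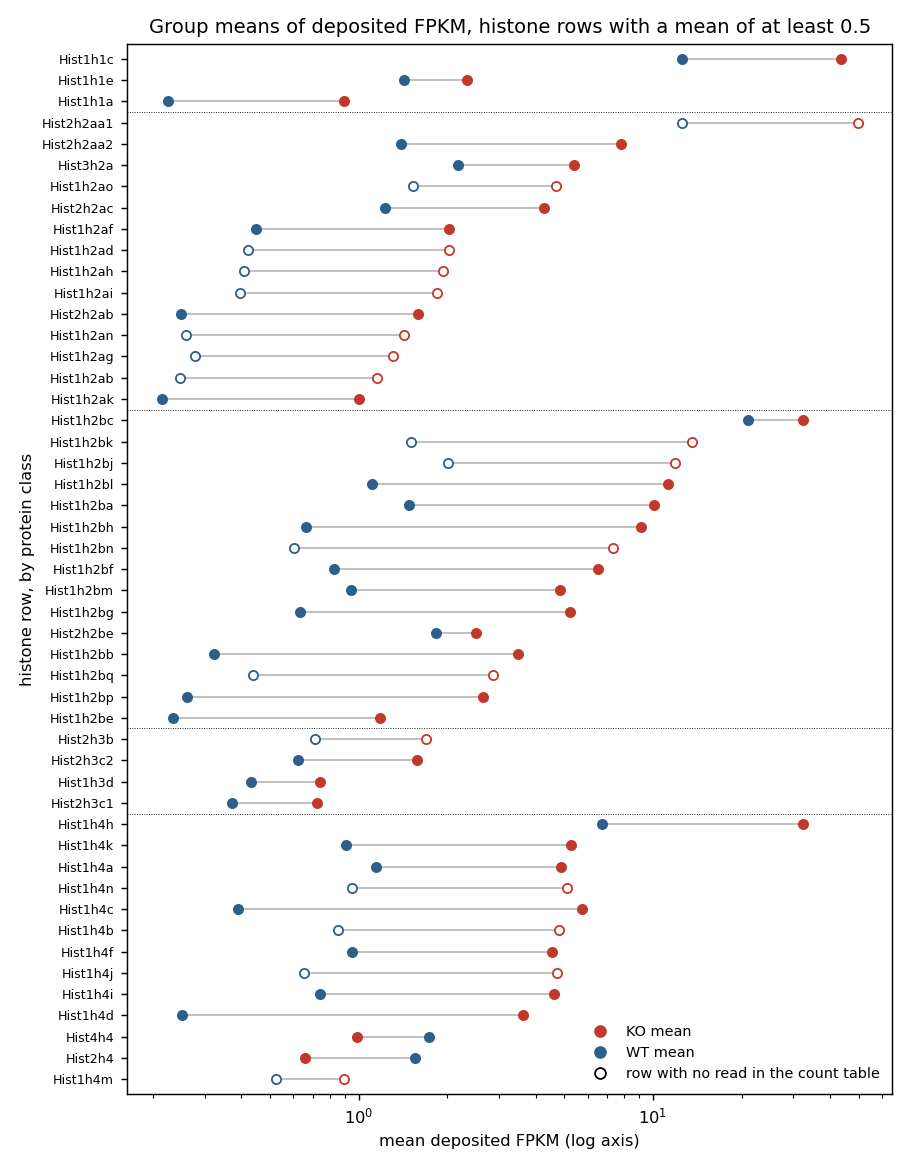
Mean deposited FPKM in KO and WT hearts (log axis) for the 49 histone genes with a mean of at least 0.5 FPKM, by class from H1 at the top to H4 at the bottom; open points mark genes with no read in the count table. The KO mean is the higher one in every gene except Hist4h4 and Hist2h4; the values are not centred on each heart's median.

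Histone variants are made outside S phase from genes with ordinary tailed mRNAs. Of 12 tested, 8 were higher and 0 lower in KO hearts, against 26.2% and 25.2% of all tested genes, and the median was 0.65 on the log2 scale. H2afz, which encodes H2A.Z, averaged 13.9 ± 4.85 CPM in KO hearts and 4.47 ± 1.70 CPM in WT hearts (1.67 ± 0.27, edgeR adjusted p = 1.7e-04). H3f3a and H3f3b, which both encode H3.3, were at 61.7 ± 7.10 and 45.9 ± 3.26 CPM in KO hearts, and at 38.0 ± 2.41 and 29.3 ± 1.61 CPM in WT hearts (0.69 and 0.65). H1f0, the linker histone of cells that have stopped dividing, averaged 83.8 ± 16.1 CPM in KO hearts and 53.1 ± 2.92 CPM in WT hearts (0.65 ± 0.14). H2afv, H2afy, H2afj and H2afy2 were the other 4 called, at 1.23, 0.62, 1.29 and 0.91. H2afx, which encodes the damage-marking H2A.X and has both a stem-loop and a tailed form, was not called (0.24 ± 0.24, adjusted p = 0.427), nor were Cenpa, Hils1 and H1fx. After GC and length correction 7 of the 8 kept their call, H2afy2 lost it (0.54, adjusted p = 0.0969) and Cenpa gained one (0.65, adjusted p = 0.032). H2afx and H1fx were then lower, at -0.62 and -1.58. Over all genes 19.1% were higher and 19.7% lower in that fit.

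Of 25 tested genes of the machinery that makes histone mRNA, 7 were higher and 4 lower. These are 28% and 16% of the list, against 26.2% and 25.2% of all tested genes, and the list's median was 0.15. Slbp, the stem-loop binding protein, averaged 4.04 ± 0.288 CPM in KO hearts and 5.37 ± 2.06 CPM in WT hearts and was not called (-0.43 ± 0.24, edgeR adjusted p = 0.133). Npat, the coactivator of histone genes in S phase, was lower, at 3.44 ± 1.20 CPM in KO hearts and 7.39 ± 1.499 CPM in WT hearts (-1.03 ± 0.24, adjusted p = 0.00259), but was -0.35 after GC and length correction (adjusted p = 0.210). Sympk, a scaffold of the cleavage complexes of histone and ordinary mRNAs, was higher at 1.04, and Cpsf1, a subunit of the factor that cleaves ordinary mRNAs, at 0.80. Snrpb, a shared Sm protein of spliceosomal particles of which U7 holds a copy, stood at 56.2 ± 6.07 CPM in KO hearts and 14.2 ± 2.98 CPM in WT hearts (1.95 ± 0.15, adjusted p = 2.01e-06). Upf1, a helicase used in histone mRNA decay, was higher at 0.74. After GC and length correction 8 were higher and 1 lower, but only 4 of the 7 higher calls were among them. Upf1 was then at 0.15 (adjusted p = 0.248) and Cpsf1 at 0.30 (adjusted p = 0.0561), while Sympk and Snrpb stayed called.

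Genes of cell division, when these histones are made, were listed as well. Of 54 genes 39 were tested, 5 higher and 8 lower in KO hearts, with a median of -0.22. These are 12.8% and 20.5% of the list, against 26.2% and 25.2% of all tested genes. The proliferation marker Mki67 was at 2.52, 2.35, 2.02 and 1.58 CPM in KO hearts, and at 5.47, 4.16, 15.99, 7.66 and 7.31 CPM in WT hearts (-1.87 ± 0.31, edgeR adjusted p = 2.17e-04). Top2a, the topoisomerase of dividing cells, was at 0.981 ± 0.170 CPM in KO hearts and 2.16 ± 0.737 CPM in WT hearts (-0.98 ± 0.32, adjusted p = 0.0175). E2f1, a transcription factor of the G1 to S step, was at 1.52, 1.39, 1.42 and 4.22 CPM in KO hearts and at 4.71, 56.9, 25.5, 5.69 and 12.2 CPM in WT hearts. In these 3 genes every KO heart was below every WT heart, and E2f1 was highest in WT hearts 2 and 3, the shallowest.

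The genes called higher were Pcna, Mcm2, Pold1, Fen1 and Tk1. Pcna, the sliding clamp of DNA polymerase, was at 17.2 ± 0.946 CPM in KO hearts and 12.0 ± 1.89 CPM in WT hearts (0.49 ± 0.15, adjusted p = 0.0111). Mcm2, part of the replicative helicase, was at 7.10 ± 1.28 CPM in KO hearts and 3.91 ± 1.09 CPM in WT hearts (0.90 ± 0.22, adjusted p = 0.00325), and Pold1, a subunit of DNA polymerase delta, was higher by 1.496 on the log2 scale. Other replication genes of the list were not called, among them Mcm3, Mcm4, Mcm5, Mcm6 and Mcm7, at 0.09, 0.02, -0.15, 0.38 and 0.07, and Pola1, Pole and Lig1, at 0.04, -0.27 and 0.23. The mitotic genes Ccna2 and Cdk1 were too sparse to test, at 0.07 to 0.36 and 0.24 to 0.38 CPM in KO hearts, and at 0.00 to 0.89 and 0.00 to 0.45 CPM in WT hearts. Removing GC and length trends gave 4 higher and 5 lower, with Mki67 at -1.501 (adjusted p = 0.00157) and Top2a at -0.46 (adjusted p = 0.259). The whole list summed to 152.2 to 176.0 CPM in KO hearts and 153.2 to 200.8 CPM in WT hearts, which overlap.

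Other RNAs without poly(A) tails were a second measure of untailed RNA in the libraries. The ribosomal precursor Rn45s took 3.79% to 4.61% of assigned reads in KO hearts and 0.939% to 3.57% in WT hearts. The groups did not overlap in this share, but its CPM overlapped and did not pass the test (log2 fold change 0.51 ± 0.23, edgeR adjusted p = 0.0735). Rmrp, the RNA of an RNA-processing enzyme, averaged 1.97 ± 0.574 CPM in KO hearts and 0.794 ± 0.925 CPM in WT hearts (1.02 ± 0.51, adjusted p = 0.106), and Rpph1, the RNA of ribonuclease P, was at 3.22 ± 1.18 CPM in KO hearts and 2.19 ± 1.08 CPM in WT hearts (0.47 ± 0.34, adjusted p = 0.259). Of 6 tested, 0 were higher and 1, the spliceosomal RNA Rnu11, was lower (-1.16 ± 0.38, adjusted p = 0.0189). After GC and length correction 5 could be tested, of which 0 were higher and 3 lower. Among all tested genes 26.2% were higher and 25.2% lower, and 19.1% and 19.7% after that correction. The Rn45s share of assigned reads and the mitochondrial share separated the genotypes beside the histone values, and their part in them was not tested. These 2 shares are not separate measures, since assigned reads include the mitochondrially encoded ones. As a share of reads outside mitochondrially encoded genes, Rn45s overlapped, with WT heart 1 above KO hearts 1, 2 and 3. Total assigned reads overlapped between the groups.

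**Figure D5:**
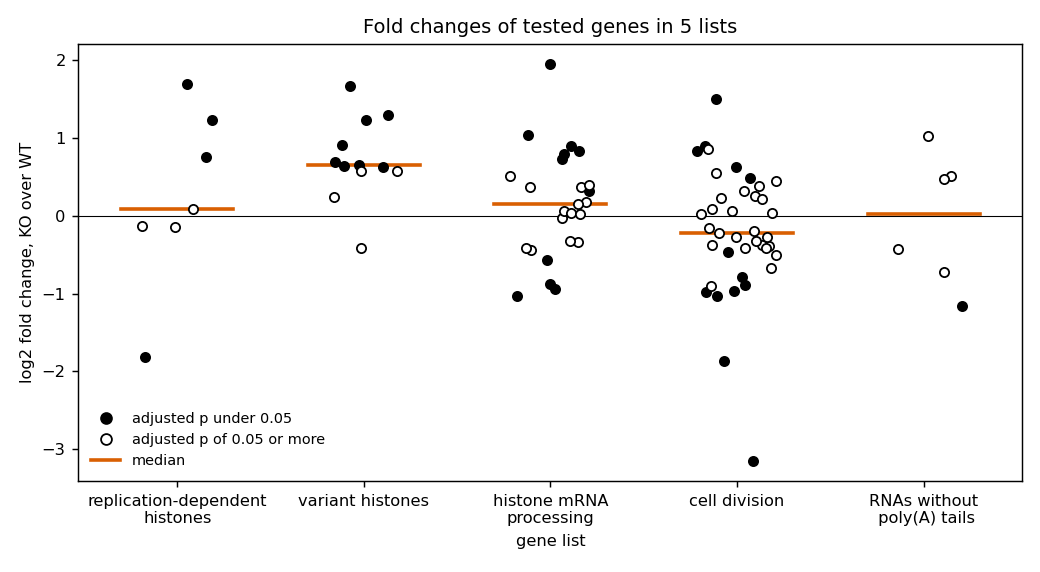
Log2 fold change (KO over WT, edgeR) of each tested gene in 5 lists, with filled points for adjusted p under 0.05 and a bar at each list's median. Replication-dependent histones run from -1.82 to 1.70, the medians of variant histones and cell division genes are 0.65 and -0.22, and 1 RNA without a poly(A) tail was called.

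Markers of heart cells were checked because cell types differ in how much they divide. The 12 cardiomyocyte markers, all tested, summed to 85220 to 96260 CPM in KO hearts and 66050 to 73100 CPM in WT hearts, with 6 higher and 1 lower. Endothelial markers had 2 higher and 3 lower of 8, fibroblast markers 3 and 3 of 8, mural markers 3 and 2 of 8, and immune markers 2 and 2 of 9, where all tested genes had 26.2% higher and 25.2% lower. Their summed levels were 672.6 to 802.5, 591.1 to 1052, 829.2 to 1219 and 162.2 to 218.9 CPM in KO hearts, and 762.4 to 918.7, 552.3 to 717.0, 843.2 to 1087 and 147.8 to 206.1 CPM in WT hearts. These 4 sums overlapped between the groups and the cardiomyocyte sum did not. After GC and length correction, cardiomyocyte markers had 3 higher and 1 lower, and their median log2 fold change went from 0.385 to 0.103. Endothelial markers then had 2 higher and 2 lower, fibroblast markers 1 and 1, mural markers 1 and 0, and immune markers 0 and 4. Over all genes 19.1% were higher and 19.7% lower in that fit. The part of cell composition in the histone values was not tested.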

How the data were processed

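The authors deposited read counts per gene, not normalised, with 1 column per heart, and a second table of FPKM values scaled by the authors. The submitters' processing notes name Cufflinks 2.1, HTSeq, TopHat2 2.0.10, Bowtie2, TopHat, edgeR and DESeq, on build mm10. Their roles, the annotation, the strand setting and the treatment of reads with several matches were not given in the sources used here; none of those steps was rerun.

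Counts were tested with edgeR 4.0.16 in R 4.3.3 (TMM, default filter by group at 10 reads, 15 in total, quasi-likelihood F tests, Benjamini-Hochberg adjustment over all genes, threshold 0.05). Standard errors derive from the F statistic. FPKM were tested with limma 3.58.1 on log2(FPKM + 1), which understates changes of low genes. GC and length trends were removed with lowess offsets (span 0.3, values for 99.03% of tested genes), which also removes biology that follows them. The procedures were also run on simulated counts. There only a small share of genes differed between the groups, no GC or length trend was built in, and the FPKM fit was run on scaled counts. That run therefore does not measure how the procedures perform on these data. Gene models, coordinates and windows are from GENCODE vM21 (GRCm38, the assembly mm10 names), where transcript ends may differ from those the authors counted. Promoters are from RefSeq (GRCm38.p6).

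A floor is 3 reads. No 2 hearts held identical values. The labels give no batch. No column of samples went unused (0).

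Members and lists were chosen with earlier results of these data known. Named histone genes averaged at least 1 CPM or passed the threshold; set genes of each list were named beside them. Hist2h2aa1, Hist1h2bh, Hist1h2bk, Hist2h4 and the globin were chosen after their values were seen. The targeted gene's own values are not reported here, so directions rest on the labels. Alternatives were RLE and upper-quartile factors, other filters, DESeq2 1.42.0, limma-voom, a replicate block, a threshold of 0.1, hearts left out, omission of mitochondrially encoded genes and Rn45s, thinned counts and FPKM with a pseudocount of 0.1, no filter or median-centring.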

Additional observations from a re-analysis of the deposited data

Results flagged for a closer look

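In 8 of the 76 groups of hearts examined (38 genes and sums, each in KO and WT hearts), 1 heart lay apart from the others of its group, by Dixon's criterion at 95%. Chance flags about 1 in 20 groups. Among the histone genes these were Hist1h2bc at 20.1 CPM in WT heart 2, where the other WT hearts were at 10.9 to 12.4 CPM, and Hist1h1e at 0.983 CPM in WT heart 4, where the others were at 1.97 to 2.37 CPM. Neither gene was called. Among the variant histones, H1f0 was at 59.9 CPM in KO heart 1, below 88.3 to 94.1 CPM in the other KO hearts. H2afj was at 18.3 CPM in KO heart 4, above 7.74 to 9.31 CPM in the others. H3f3b was at 41.0 CPM in KO heart 2, below 47.4 to 47.7 CPM. Of the processing genes, Sympk was at 172.4 CPM in KO heart 4, above 120.8 to 129.1 CPM, and Snrpb was at 19.4 CPM in WT heart 1, above 11.9 to 13.5 CPM. E2f1 was at 4.22 CPM in KO heart 4, above 1.39 to 1.52 CPM in the other KO hearts.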

How the results depend on the processing

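Over all genes 6503 were called, 3535 with GC and length trends removed together with the replicate block, 2341 in thinned counts and 5594 to 6752 with each heart left out. Histone genes called higher numbered 3, against 7 with no filter, 5 with DESeq2, 5 without both shallow WT hearts, 1 when thinned, 43, 43 and 46 in FPKM (pseudocount 1, 0.1, and no filter), 34 in median-centred FPKM and 3 to 5 with each heart left out. Those called lower numbered 1, and 0 when thinned and in the 3 uncentred FPKM fits. Hist4h4 in those fits was at -0.43 to -0.69 (adjusted p = 0.0551 to 0.0811).

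Variant histones called lower went to 2 with GC and length trends removed, against 0. Cell division genes called higher numbered 5, against 3 with the block, 1 when thinned and 3 to 6 with hearts left out. Those called lower numbered 8, against 5 with no filter, 3 with the block, 5 without both shallow WT hearts, 5 with trends removed, 3 with trends removed and the block, 1 when thinned, and 5 to 7 with hearts left out. Processing genes called higher went to 3 when thinned, and those called lower to 1, 1 and 0 with trends removed, with trends removed and the block, and when thinned. RNAs without tails called higher numbered 0, against 1 with DESeq2, 2 with limma-voom, 2 with the block, 1 at a threshold of 0.1 and 0 to 1 with hearts left out. Those called lower numbered 1, against 2 with limma-voom, 0 with the block, 3 with trends removed, 0 when thinned and 0 to 1 with hearts left out. The log2 ratio of summed histone CPM was 0.73, with 0.62 to 0.80 over its alternatives.

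Signs reversed for Hist1h2bc without both shallow WT hearts (0.021), with trends removed (0.084, and 0.024 with the block) and in FPKM (0.617, 0.640 and 0.617, and 0.037 centred), and ranged from -0.223 to 0.007 with hearts left out, the highest without WT heart 2. They reversed for Hist2h2be with the block (0.053), with trends removed (0.180, and 0.385 with the block) and in FPKM (0.375, 0.627 and 0.375, and 0.000 centred). Hist1h1e reversed with trends removed (-0.025, and -0.067 with the block) and ranged from -0.170 to 0.231 with hearts left out, below 0 without KO heart 3 or WT heart 4. H1fx reversed in FPKM (0.10, 0.30 and 0.10), H2afj when thinned (-0.33), H2afx with trends removed (-0.621, and -0.626 with the block), Slbp in FPKM (0.17, 0.24 and 0.17) and with trends removed and the block (0.27), Rmrp with trends removed (-0.15), and Rpph1 with trends removed (-0.882, and -0.795 with the block). The cause was not tested.

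KO and WT hearts 1 to 4 share only a number: same-numbered hearts correlated at -0.113, 0.041, -0.065 and -0.259, and not every heart correlated best with its own number. With the replicate block 5030 genes were called, and the same 4 histone genes. Leaving out a heart changed the histone count only for KO heart 1. A gene absent from a heart could lie at up to 0.135 CPM in the deepest and 1.04 CPM in the shallowest library.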
